A study of Homo sapiens with 2 samples.

Results

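The 10 genes described here belong to the BCL2 family, whose proteins decide at the mitochondrial outer membrane whether a cell survives or dies. They were chosen by name: 4 anti-apoptotic genes (BCL2, BCL2L1, BCL2L2 and MCL1) and 6 pro-apoptotic genes (BAX, BAK1, BCL2L11, BBC3, PMAIP1 and BID). All probe sets that the platform annotation gives to exactly 1 of these symbols were taken, 31 of the 41097 single-gene probe sets on the array. They represent 9 of the 10 genes, with 16 anti-apoptotic and 15 pro-apoptotic probe sets. BBC3 has no single-gene probe set in that annotation.

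RNA was taken from cultures of CL1-5, a highly invasive human lung adenocarcinoma cell line, and read on Affymetrix Human Genome U133 Plus 2.0 arrays. The first culture received 0.11 µM analogue 3 for 24 h, a synthetic relative of desmosdumotin C carrying iodo, tripropyl and methoxy groups, and the other received the solvent DMSO for 24 h. The dose equals the ED50 for cytotoxicity in this line that the submitters state, and their question was which genes the compound alters. Since each condition has a single array, the differences below carry neither a replicate check nor a p-value. The line stands for 1 tumour cell type in culture: of 6 epithelial markers, KRT8 and KRT18 were measured, while EPCAM and CDH1 read below the array median on both arrays, and none of 6 lung epithelial, 5 leukocyte or 5 fibroblast markers with a probe set was measured, that is, reached 8 times the array median on either array. Of 4 endothelial markers only PECAM1 was, at 15.7 with analogue 3 and 11.4 with DMSO.

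In this family, BCL2, BCL2L1 (BCL-xL), BCL2L2 (BCL-w) and MCL1 hold the death effectors in check. BAX and BAK1 are those effectors, which form pores in the outer membrane and release cytochrome c. BCL2L11 (BIM), BBC3 (PUMA), PMAIP1 (NOXA) and BID carry only the short BH3 segment in common with the other members; they bind the anti-apoptotic proteins or activate the effectors, and NOXA binds MCL1 in particular. Much of their control is at the level of the protein, which arrays do not read.

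Promoters are shown for PMAIP1 and BAX, the members with more than 1 probe set whose probe sets were all measured and all lower with analogue 3. The 250 bases before the RefSeq start of each gene (GRCh38.p14) are chr18:59899746-59899995 on the + strand for PMAIP1 and chr19:48954625-48954874 on the + strand for BAX. Each is printed 5′ to 3′, with capitals marking any of the 4 short motifs searched on both strands: the CRE core ACGTCA, the GC box GGGCGG, the CCAAT box CCAAT and the E box CACGTG.
PMAIP1: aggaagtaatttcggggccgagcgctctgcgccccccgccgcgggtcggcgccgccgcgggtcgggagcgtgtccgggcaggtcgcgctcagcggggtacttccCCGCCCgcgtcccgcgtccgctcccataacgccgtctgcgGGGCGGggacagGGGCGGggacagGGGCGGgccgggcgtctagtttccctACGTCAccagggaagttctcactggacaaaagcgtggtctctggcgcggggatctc
BAX: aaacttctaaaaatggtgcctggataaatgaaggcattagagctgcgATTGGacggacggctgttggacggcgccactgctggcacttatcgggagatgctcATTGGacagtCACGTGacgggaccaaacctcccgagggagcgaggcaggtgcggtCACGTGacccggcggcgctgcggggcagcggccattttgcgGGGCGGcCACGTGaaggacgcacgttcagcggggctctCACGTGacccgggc
The PMAIP1 stretch holds 1 CRE core, whose first base lies 56 bases before the start, and 4 GC boxes. The CRE core is the sequence that ATF and CREB factors bind, and 7.10% of 35116 promoter stretches of this length hold it. The BAX stretch holds 4 E boxes, at 138, 93, 45 and 14 bases before the start, with 2 CCAAT boxes and 1 GC box. The E box is bound by MYC among others, and 6.34% of the stretches hold it. GC boxes are present in 42.6% and CCAAT boxes in 32.0% of the stretches. No 2 of these matches overlap. Promoters were listed for 8 of the 10 genes, all but MCL1 and BCL2L2, in 13 stretches. Of the 8, only PMAIP1 had a CRE core and 3 had an E box in at least 1 of their listed starts. Some genes have several starts, those of BID partly overlapping, so these counts per gene cannot be set against the shares per stretch. The motifs were chosen after seeing the promoters, and the 2 printed genes for being lower. The shares therefore do not show that a motif is unusual here. A match is a description of the letters, not of binding.

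None of the 7 genes that could be measured differed by 2-fold, and for BCL2, BCL2L11 and BBC3 no such call could be made. Intensities are multiples of the array median; values under 8 (log2 3) were raised to that floor before the difference, and a probe set or gene counted as measured where at least 1 array reached it. Of the 31 probe sets 14 were measured, all of them on both arrays, and they covered 7 genes. Of these 14, 13 were lower with analogue 3, with a median log2 difference of -0.45 and a range from -0.74 to 0.24; after quantile normalization of the 2 arrays, 11 of 14 were lower. Across the array, 53.1% of the 11933 single-gene probe sets at the floor on both arrays were lower, with a median over the 13496 measured of -0.03. Of the 14, 4 reached 1.5-fold, where 21.1% of all such probe sets did, and none reached 2-fold, where 6.67% did; such small counts do not set the members apart from the array. Probe sets of 1 gene read the same transcripts, so the 14 are not independent. In a bulk culture, fewer expressing cells and less RNA per cell cannot be told apart.

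**Figure D1:**
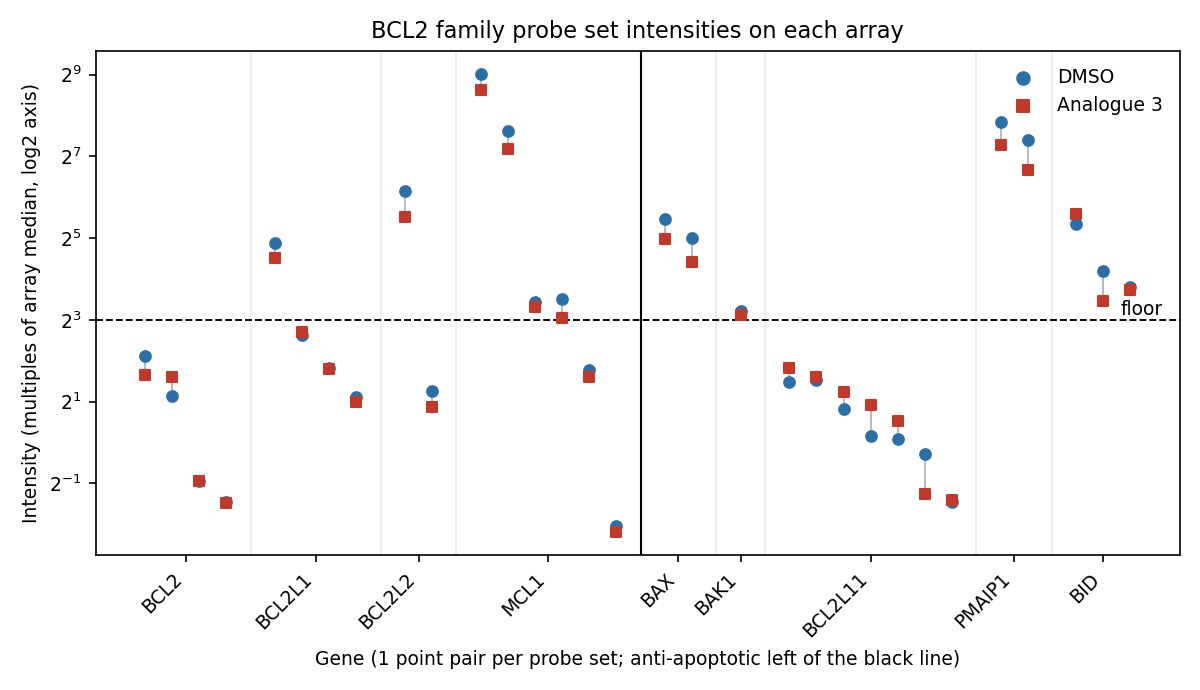
Intensity of each BCL2 family probe set on the DMSO array (circles) and the analogue 3 array (squares), on a log2 axis in multiples of the array median; the dashed line is the floor of 8. The squares sit below the circles in 13 of the 14 pairs above the line (11 after quantile normalization), while the 17 pairs under it have no usable order.

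Of the anti-apoptotic genes, 3 were measured and all 3 were lower with analogue 3. MCL1, a short-lived guard against BAK1, read 395.8 with analogue 3 and 520.7 with DMSO in its probe set of highest level, a log2 difference of -0.40 or 1.32-fold lower. Its next probe set read 145 and 195.8 (log2 -0.43). The other measured MCL1 probe sets read 8.31 and 11.4 (log2 -0.46), and 9.91 and 10.9 (log2 -0.14). All 4 thus lay on the DMSO side, with 3 of them close together. The remaining 2 MCL1 probe sets were under the floor, between 0.218 and 3.43.

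With each gene read by its probe set of highest level, BCL2L2 had the largest difference among the measured member genes. Single weaker probe sets of PMAIP1 (log2 -0.73) and BID (log2 -0.74) differed more. The measured BCL2L2 probe set read 45.6 with analogue 3 and 71.7 with DMSO, which is 1.57-fold lower (log2 -0.65). The other BCL2L2 probe set was under the floor at 1.82 and 2.40. BCL2L1 read 22.8 and 29.3 in its measured probe set, 1.28-fold lower (log2 -0.36). The 3 other BCL2L1 probe sets were under the floor, between 1.99 and 6.47. Both genes therefore rest on 1 probe set each. BCL2 itself was not measured: its 4 probe sets read between 0.358 and 4.34, of which 2 were nominally higher and 2 lower.

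Of the pro-apoptotic genes, 4 were measured, with 3 lower and 1 higher (2 and 2 after quantile normalization). PMAIP1 read 154.5 with analogue 3 and 230.5 with DMSO, which is 1.49-fold lower (log2 -0.58). Its second probe set read 102.2 and 169.4, which is 1.66-fold lower (log2 -0.73). The effector gene BAX read 31.4 and 44.5 (log2 -0.50, 1.42-fold lower), and 21.2 and 32.0 in its second probe set (log2 -0.59). Both genes were thus lower in every probe set they have. All of these end in _s_at. Neither gene therefore has a value in the alternative run without probe sets ending in _s_at or _x_at. BAK1, the other effector gene, read 8.74 and 9.31 in its only probe set, a log2 difference of -0.09 just above the floor, which turned to 0.02 after quantile normalization.

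BID, which caspase-8 cuts to link death receptors to mitochondria, gave no single direction. Its probe set of highest level read 47.9 with analogue 3 and 40.6 with DMSO (log2 0.24). The second read 13.3 and 14.0 (log2 -0.08). The third read 10.95 and 18.3, which is 1.67-fold lower (log2 -0.74). BCL2L11 was not measured, since its 7 probe sets read between 0.363 and 3.50. At these levels 6 were nominally higher with analogue 3 and 1 was lower.

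**Figure D2:**
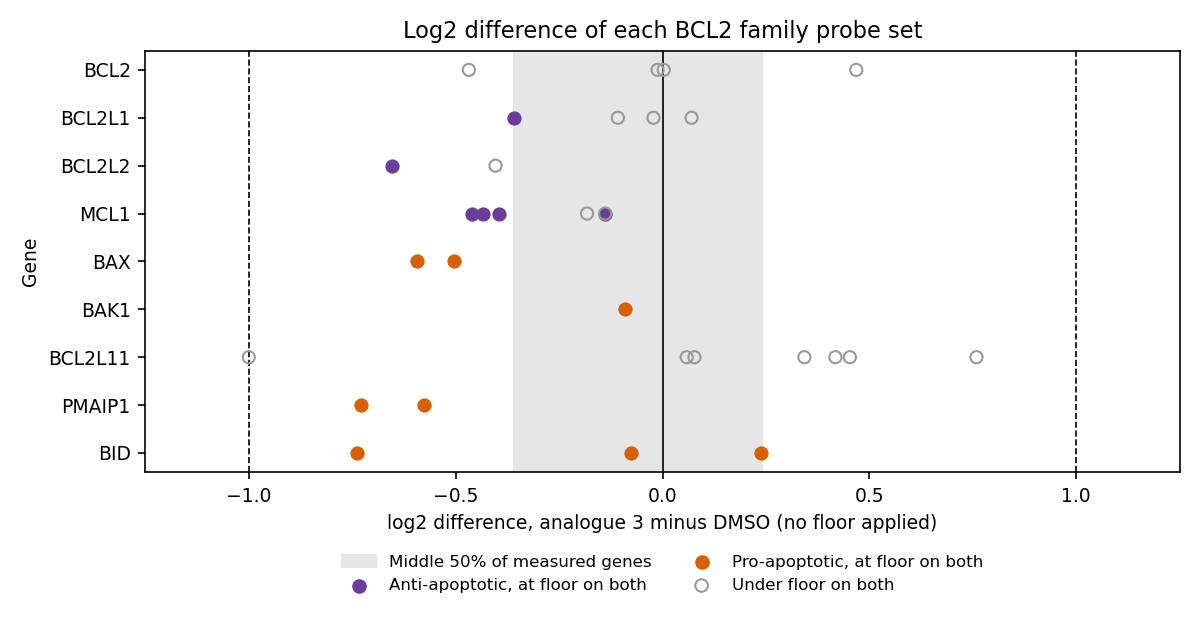
Log2 difference (analogue 3 minus DMSO, no floor applied) of each member probe set by gene; filled points were at the floor on both arrays, open points under it on both, the grey band spans the quartiles of all measured genes (-0.36 to 0.24) and dashed lines mark 2-fold. The filled MCL1, BAX and PMAIP1 points lie left of 0, and the 3 BID points spread from -0.74 to 0.24.

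Without replicates, the available measure of error was how far probe sets of the same gene differed. Over 2874 genes with at least 2 probe sets at the floor on both arrays, the SD of 1 probe set was 0.23 on the log2 scale; culture, RNA and hybridisation error are not in it. Of the 7 measured member genes, 6 had a difference over this SD, BAK1 being the exception and BID, at 0.24, close to it. Of all 8523 measured genes, 60.3% exceeded it. At the gene level, each gene being represented by its probe set of highest level, no member passed 2-fold upward or downward, against 3.74% and 3.92% of measured genes, and 1 of 7 (BCL2L2) reached 1.5-fold, against 22.5%. Of the 7, 6 were below 0 (5 after quantile normalization), against 55.5% of measured genes. The median over the 7 was -0.40, against -0.05 over all measured genes, whose quartiles were -0.36 and 0.24. With 1 array per group these counts have no test.

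At the gene level, the medians of survival and death genes lay close to each other. The median log2 difference was -0.40 over the 3 measured anti-apoptotic genes and -0.30 over the 4 measured pro-apoptotic genes, a gap of -0.10. This gap between genes stayed below 0 under each alternative run. It reached -0.34 with a floor of log2 1 or none. There BCL2 (-0.47) and BCL2L11 (0.34) enter at levels under 5 times the array median. Without probe sets ending in _s_at or _x_at the gap was -0.28. In that run BAX and PMAIP1 drop out, and the pro-apoptotic median rests on 2 genes, BAK1 and BID. Over the measured probe sets the order was the other way, with medians of -0.41 over 6 anti-apoptotic and -0.54 over 8 pro-apoptotic. Of the 12 pairs of 1 measured anti-apoptotic and 1 measured pro-apoptotic gene, 8 differed by less than 0.32, the SD expected between 2 probe sets. These pairs reuse the same 7 genes. The share of all measured gene pairs within 0.32 was not computed, so the count does not set the members apart. For MCL1 and its partner PMAIP1 the log2 differences were -0.40 and -0.58, so MCL1 was 0.18 less low. For BCL2L1 against BAX the gap was 0.14, and for MCL1 against BAK1 it was -0.31. The 4 pairs beyond 0.32 were those of BID with each anti-apoptotic gene (-0.89 to -0.60), which rest on the probe set of BID that was higher, and BCL2L2 with BAK1 (-0.56).

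The rest of the pathway was read from 6 further lists with 68 genes, of which 54 were measured and 4 are not analysed here. Past 2-fold lay 1 of the 54 on the higher side and 6 on the lower side, against 3.74% and 3.92% of all measured genes; 3 of the 6 are in the transcription factor list. The lists were chosen with earlier results of these data known, so such comparisons with all measured genes do not set a list apart. Among 13 other BCL2 family genes, 8 were measured, with a median of -0.35 (-0.033 over all 13 with no floor and -0.040 over 4 with a floor of log2 5), 5 below 0, 1 at least 2-fold lower and none 2-fold higher. The BH3-only gene BIK was the member past 2-fold, at 17.1 with analogue 3 and 41.2 with DMSO (log2 -1.26, 2.40-fold lower), in a single probe set. Of 3 genes chosen after their values were seen, BOK, an effector related to BAX, read 8.67 and 14.4 (log2 -0.73), and BCL2L12 read 34.1 and 18.6 (log2 0.88). The third, BAD, a BH3-only gene controlled by phosphorylation, had a log2 difference of 0.08. BMF and HRK were not measured.

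Among 12 binding partners and turnover factors the median was -0.06, and ran from -0.11 to 0.10 over the alternatives, with 1 gene past 2-fold each way. The co-chaperone gene BAG3 read 137.9 with analogue 3 and 66.4 with DMSO (2.08-fold higher). MOAP1, whose product binds BAX, read 34.6 and 69.6 (2.01-fold lower), and passed 2-fold by so little that it no longer did so after centring, quantile normalization or loess removal. The MCL1 ubiquitin ligase genes HUWE1 and FBXW7 and the MCL1 deubiquitinase gene USP9X, also chosen after their values were seen, had log2 differences of -0.08, 0.10 and -0.14. These are all within the SD of 1 probe set.

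Transcription factor genes known to act on this family were mostly lower, with 10 of 10 measured below 0 (10 of 11 after centring, quantile normalization or loess removal), a median of -0.46 and 3 of 10 at least 2-fold lower. Of all measured genes, 55.5% were below 0 and 3.92% at least 2-fold lower. This list too was chosen with earlier results known, so these shares do not set it apart. When a gene was given its probe sets' median, 9 of 10 were below 0, and other measured probe sets reached 0.15 for JUN and 0.46 for CREB1. DDIT3 (CHOP), which acts on BCL2L11 and BBC3 in endoplasmic reticulum stress, read 23.3 with analogue 3 and 174.3 with DMSO, 7.48-fold lower. ATF4, an activator of PMAIP1, read 572.6 and 1220, 2.13-fold lower. ATF3 read 2.97 and 24.9, at least 3.11-fold lower against the floor. Both chosen after their values were seen, MYC read 160.5 and 227.2 (log2 -0.50), and FOXO3, an activator of BCL2L11, read 85.5 and 132.7 (log2 -0.63, with -0.65 and -0.57 as the lowest and highest of its other measured probe sets). Whether these levels bear on those of PMAIP1 or BAX was not tested.

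Downstream of the family, 8 genes of cytochrome c release and the apoptosome were measured, with a median of 0.03, which ran from -0.15 to 0.14 over the alternatives. XIAP, the caspase inhibitor gene, was the gene at least 2-fold lower, at 79.9 against 165.3 (log2 -1.05, with -1.04 to -0.84 in its other measured probe sets). APAF1, the scaffold of the apoptosome, chosen like CYCS after its value was seen, read 37.7 and 19.0, which is 1.98-fold higher, and was past 2-fold after centring, quantile normalization or loess removal. CYCS, the cytochrome c gene, read 631.1 and 535.5 (log2 0.24). Upstream, none of the 7 measured genes of death receptors and caspase-8 activation reached 2-fold, with a median of -0.32 that ran from -0.53 to -0.23 over the alternatives. The TRAIL receptor genes TNFRSF10A and TNFRSF10B were 1.49-fold lower each in their probe sets of highest level, with log2 differences of -0.50 to -0.46 and of -0.34 to -0.17 in their other measured probe sets, and the adaptor gene TRADD was 1.55-fold lower. CFLAR, the caspase-8 inhibitor gene, was 1.57-fold higher in its probe set of highest level, but its other measured probe sets ran from -0.66 to 0.71 on the log2 scale.

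None of the 9 genes in the mitochondrial outer membrane and fission list, which also holds fusion and inner membrane genes, reached 2-fold either. Above 0 lay 7 of 9, against 3789 of all 8523 measured genes, with a median of 0.16. That median ran from 0.03 to 0.22 over the alternatives. When a gene was given its probe sets' median, 3 of 9 lay below 0. The porin genes VDAC3 and VDAC1 read 504.8 against 325.9 (log2 0.63) and 387 against 268.1 (log2 0.53). OMA1, a mitochondrial protease gene, was lower (log2 -0.47), and the fusion gene MFN2 read 57.9 against 47.65 (log2 0.28).

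**Figure D3:**
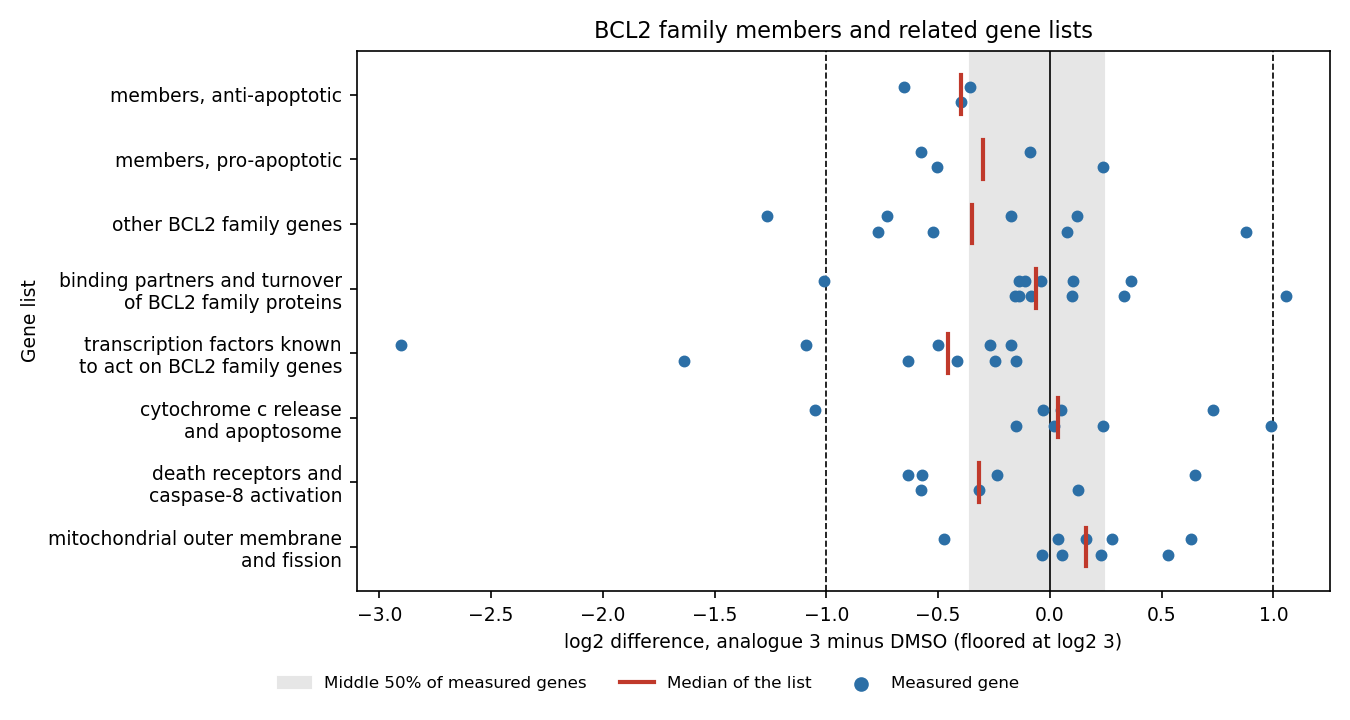
Floored log2 difference (analogue 3 minus DMSO) of each measured gene (points) in the members' 2 lists and 6 further lists, with each list's median (red bars), the quartiles of all measured genes (grey band) and 2-fold (dashed lines). Both member lists lie within 2-fold, while DDIT3, ATF3, ATF4, BIK, XIAP and MOAP1 lie past it on the lower side and BAG3 on the higher side.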

How the data were processed

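Biotin-labelled cRNA from 2 cultures was hybridised to 1 array each. The authors deposited 1 linear intensity per probe set and array; GCRMA is named in the submitters' processing notes, and no version is given in the sources used here. Each deposited column has a median intensity of 1, which implies a scaling to that median; no label states it. GEO's platform annotation named the probe sets.

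Intensities were log2-transformed, floored at log2 3 and subtracted (Python 3.11.15, pandas, statsmodels for loess); a fold of 2 was the threshold. A floor of log2 5, used earlier on this table, leaves out BCL2L1 and BAK1 as well and was kept as an alternative. Each gene was represented by its probe set with the highest mean log2 level. Named genes were all members, and in the other lists the genes past 2-fold or, where none passed, up to 4 with the largest differences; others are marked. The members and lists were chosen with earlier results of these data known, and the promoter motifs after seeing the promoters. The calls were also run on simulated data whose noise was the spread between probe sets of a gene. That noise holds no culture, RNA or hybridisation error, so the simulation cannot check the calls against such error. Alternatives were other floors, scalings, probe set rules and thresholds. The number of arrays limits the precision.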

Additional observations from a re-analysis of the deposited data

How the results depend on the processing

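No paired analysis was possible because each group has 1 array. No member gene reached 2-fold under any floor, scaling or probe set rule run; with no floor, 1 BCL2L11 probe set under the array median did. The anti-apoptotic median ran from -0.52 to -0.36 and the pro-apoptotic median from -0.48 to -0.08 over these settings. The genes measured changed between them. The -0.08 came without probe sets ending in _s_at or _x_at, where BAX and PMAIP1 drop out and BAK1 and BID remain. A value was taken as moved where it shifted by more than the SD of 1 probe set, itself 0.17 to 0.33 over the floors, which were added for this SD after seeing the data. The gap of anti-apoptotic minus pro-apoptotic medians moved to -0.34 with a floor of log2 1 and with no floor. BID turned to -0.08 with the median of its probe sets and without probe sets ending in _s_at or _x_at, BAK1 to 0.02 after quantile normalization, and MCL1 was -0.14 without those probe sets.

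Over all genes, 586 of 11158 measured were lower with a floor of log2 1, and 724 of 19775 with none. With a floor of log2 5, 175 genes were higher and 135 lower of 5050 measured. At 1.5-fold the counts were 818 and 1099 of 8523, and at 3-fold 72 and 90 of 8523. Over all probe sets, 963 of 20009 measured were lower with a floor of log2 1. With log2 5, 229 were higher and 167 lower of 6974, and with no floor 879 and 1292 of 41097. Without _s_at and _x_at probe sets the counts were 271 and 299 of 7454. At 1.5-fold they were 1310 and 1617 of 13496, and at 3-fold 104 and 119 of 13496. The main counts were 319 and 334 of 8523 genes, and 476 and 476 of 13496 probe sets. The number measured changes with the floor and the probe set rule, so counts between such runs differ partly for that reason.

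Of the other BCL2 family genes, 2 were lower with a floor of log2 1 or none and 0 with log2 5 or at 3-fold; the median was -0.040 with log2 5 and -0.033 with no floor. At 1.5-fold, 1 anti-apoptotic member was lower, 1 other BCL2 family gene was higher and 3 were lower, 2 apoptosome genes were higher, 1 death receptor gene was higher and 1 lower, and 1 mitochondrial membrane gene was higher. Of the binding partners, 0 were lower after centring, quantile normalization or loess removal, 0 were higher without _s_at and _x_at probe sets, and 0 either way at 3-fold. Of the apoptosome genes, 1 was higher after each of these 3 scalings and 0 were lower at 3-fold. Values near the floor lie close to background, which limits BAK1, the weaker MCL1 probe sets and the third BID probe set.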

Other observations

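A probe set that the platform annotation gives jointly to BBC3, MIR3190 and MIR3191 was counted in nothing above, since it belongs to no single gene there. It read 3.36 with analogue 3 and 10.95 with DMSO, which is under the floor on the first array. Another, given jointly to BCL2L2, PABPN1 and BCL2L2-PABPN1, read 680.1 and 679.8. Its signal cannot be split between these genes. It is therefore no second reading of BCL2L2, whose measured single-gene probe set read 45.6 and 71.7.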
